A study of Mus musculus with 151 samples.

Results

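The 37 genes described here are those of meiotic prophase, chosen by name for their known work in the chromosome axis, synapsis and recombination. The rule uses no measured value, but the choice was made with earlier results of these data known. They were looked up in the count tables of ovaries, primordial germ cells (PGCs), oocytes and cumulus cells of mice conceived naturally (Natural) or by in vitro fertilization (IVF). All 37 were present in each of the 7 tables, among 35976 gene names per table. By role, 3 belong to meiotic entry, 5 to DNA break formation, 10 to the axis and synaptonemal complex, 7 to strand exchange, 7 to crossover formation and 3 to telomere attachment, and 2 have other roles.

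Natural animals came from matings of CF-1 females with B6/SJL males. IVF animals came from eggs of superovulated CF-1 females and capacitated sperm of B6/SJL males, with culture to the blastocyst stage and transfer to pseudopregnant females, so that both groups shared their parental strains. PGCs were taken at E13.5 in libraries of 100 cells (4 Natural, 5 IVF), and ovaries at E18.5 (4 and 6), 12 weeks (4 and 5) and 39 weeks (5 and 5). Ovulated oocytes came from superovulated offspring at 12 weeks (36 and 40 single oocytes, here summed into the 5 and 5 library sets their names give) and 39 weeks (9 and 10), and cumulus cells at 12 weeks (5 and 5). The names of the oocyte sets begin with 35 or 92 in Natural and with 126 or 127 in IVF. Sets that share this first number were taken as independent, and the part of this grouping in their spread was not tested. By the study's methods the ovaries came from separate animals of several litters. For PGC, oocyte and cumulus libraries no label ties a library to a litter, and their p-values measure the spread between these samples, which may be technical. The day on which IVF fetuses were collected is given in one place as a day later than for Natural fetuses, and age and mode of conception cannot be told apart at E18.5 where that holds. A Natural 39-week ovary, replicate 5, carried both 39 and 40 weeks in its labels, and Natural cumulus replicate 5 carried a set name also found among IVF oocytes.

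Levels are in CPM, the count of a gene scaled to the normalized total of its library within its own table. For 39-week oocytes the plain total count of each library was used, without normalization between libraries. Differences are log2 of IVF over Natural with a standard error (SE). Total counts per library ran from 4364495 to 8675189 in PGCs, from 6995713 to 14830788 in E18.5 ovaries, from 2839022 to 43363799 in adult ovaries, from 839781 to 10879166 in single 12-week oocytes, from 2820748 to 31126357 in 39-week oocytes and from 2532824 to 6345249 in cumulus cells. The summed granulosa genes were at most 14.1 CPM in PGCs, and the summed pan germ cell genes at most 4.07 CPM in cumulus cells. In 4 of 10 cumulus libraries the summed immune genes exceeded the summed granulosa genes, up to 4328 against 1710.4 CPM in IVF 2. In 39-week oocytes the summed erythroid genes ran from 106 to 17653 CPM in Natural and from 2.14 to 24533 CPM in IVF oocytes. The part of immune and erythroid RNA in the member values was not tested. By growing oocyte genes the Natural oocytes 6 and 9 of 39 weeks stood apart, with summed levels of 3268 and 7240 CPM against 23003 to 41724 CPM in the other Natural oocytes and 29250 to 39482 CPM in IVF oocytes. Values that rest on them are given with and without them.

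Female germ cells enter meiosis in the fetal ovary, when STRA8 is switched on by signals that include retinoic acid and BMPs, and arrest at the diplotene stage of the first prophase around birth. In between, SPO11 cuts the DNA, the recombinase DMC1 helps to carry the broken ends into the homologous chromosome, and axis proteins such as SYCP3 are zipped together by SYCP1 and the central element proteins. MSH4, MSH5 and their partners then turn some of these joints into crossovers. Entry needs STRA8 and its partner MEIOSIN, and MEIOC with the RNA helicase YTHDC2 keeps germ cells in prophase. By ovulation the oocyte has left this programme, and fully grown oocytes are largely silent in transcription.

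The stretch before the transcription start is shown for 6 members as examples of letters that the members share there. The 6 are a choice, and members such as Fkbp6, Syce2 and Dmc1, which are followed through the text, are not shown. RefSeq windows of 250 bases before the start (GRCm38.p6) were found for 30 of the 37 members, in 36 windows. No entry was used for Ythdc2, Spo11, Meiob, Tex15, Mcmdc2, Tex11 and Majin. For a description, 3 short motifs were searched on both strands, the E-box CACGTG that basic helix-loop-helix factors bind, the letters CNCCTCAG of the STRA8 and MEIOSIN type, and TCCCGC of the E2F6 type. CACGTG stood in 11 of the 36 member windows (30.6%) and in 6.02% of 32851 windows of all genes. CNCCTCAG stood in 6 (16.7%) against 6.42%, and TCCCGC in 16 (44.4%) against 16.9%. At least 1 of the 3 was found in 24 member windows (66.7%) and in 26.2% of all windows. Matches of different motifs shared 1 base in a Prdm9 window and 3 bases in a Syce2 window. These are descriptions of letters, and no binding was measured. For Meioc and Stra8 the window lies inside the gene model used here for exon length, and the stretch before the start of that model was not searched. Windows of Mei1, Rec114, Msh4 and Hfm1 and 1 Prdm9 window also lie inside their gene models, and some others reach into theirs. In the sequences, written 5′ to 3′ on the strand of the gene, capitals mark the motifs. Over the 30 members with a window 9 hold the E-box, a smaller share than among the 6 shown. Of these 6, Sycp3, Sycp1, Tex12 and Slc25a31 hold the E-box, Sycp3, Tex12 and Meioc hold TCCCGC, and Stra8 holds none of the 3. They lie at chr10:88459337-88459586 on the plus strand (Sycp3), chr3:102936101-102936350 on the minus strand (Sycp1), chr9:50561269-50561518 on the minus strand (Tex12), chr3:40708621-40708870 on the plus strand (Slc25a31), chr11:102665335-102665584 on the plus strand (Meioc) and chr6:34920698-34920947 on the plus strand (Stra8).
Sycp3: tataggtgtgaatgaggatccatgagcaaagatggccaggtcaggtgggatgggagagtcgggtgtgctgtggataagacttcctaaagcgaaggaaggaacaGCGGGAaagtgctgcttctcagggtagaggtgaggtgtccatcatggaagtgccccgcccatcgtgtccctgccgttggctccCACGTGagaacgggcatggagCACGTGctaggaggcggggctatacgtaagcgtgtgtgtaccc
Sycp1: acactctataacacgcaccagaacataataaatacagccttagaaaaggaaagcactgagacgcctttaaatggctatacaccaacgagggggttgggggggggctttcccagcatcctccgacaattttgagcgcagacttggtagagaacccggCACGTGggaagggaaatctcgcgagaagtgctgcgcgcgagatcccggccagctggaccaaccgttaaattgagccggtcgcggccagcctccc
Tex12: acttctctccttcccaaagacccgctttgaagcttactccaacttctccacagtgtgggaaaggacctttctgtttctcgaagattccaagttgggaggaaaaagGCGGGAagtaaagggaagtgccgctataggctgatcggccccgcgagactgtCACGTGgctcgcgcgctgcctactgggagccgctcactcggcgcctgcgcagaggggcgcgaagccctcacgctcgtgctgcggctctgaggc
Slc25a31: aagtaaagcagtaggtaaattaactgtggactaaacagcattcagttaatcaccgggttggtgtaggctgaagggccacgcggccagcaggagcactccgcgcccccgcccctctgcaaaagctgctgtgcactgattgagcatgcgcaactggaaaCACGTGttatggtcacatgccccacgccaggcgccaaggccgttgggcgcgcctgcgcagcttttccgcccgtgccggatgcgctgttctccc
Meioc: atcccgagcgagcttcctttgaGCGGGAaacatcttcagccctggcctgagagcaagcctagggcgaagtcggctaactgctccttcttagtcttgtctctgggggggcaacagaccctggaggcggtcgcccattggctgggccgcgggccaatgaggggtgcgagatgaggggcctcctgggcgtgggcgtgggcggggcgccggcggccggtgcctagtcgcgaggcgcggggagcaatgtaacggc
Stra8: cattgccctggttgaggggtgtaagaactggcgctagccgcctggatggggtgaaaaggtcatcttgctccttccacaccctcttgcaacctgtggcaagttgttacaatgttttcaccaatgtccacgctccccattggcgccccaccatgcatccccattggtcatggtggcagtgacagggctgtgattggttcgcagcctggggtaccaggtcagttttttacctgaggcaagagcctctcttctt

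At E13.5, the day around which germ cells of the ovary begin meiosis, no member was called between Natural and IVF PGCs. Of the 34 members that passed the filter on low counts (Mei1, Spata22 and Rnf212 did not), 0 were called by edgeR's quasi-likelihood test with Benjamini-Hochberg adjustment, 0 had an unadjusted p below 0.05, and DESeq2 called 0 of the 29 members to which it gave an adjusted p. Of all 12763 genes tested 0 (0%) were called, and 2.73% had an unadjusted p below 0.05. The median difference of the members was −0.16, beside −0.04 over all genes, with 14 members above 0 and 20 below it, beside 44.3% of all genes above 0. These counts cannot show that the groups are alike, because the Natural libraries differed widely among themselves.

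Stra8, the gene that starts the programme, stood at 30.4, 624, 0 and 2.19 CPM in Natural 1 to 4 and at 98.1, 188, 99.6, 56.3 and 153 CPM in IVF 1 to 5. The Natural libraries thus held both the highest value and the lowest, and every IVF value lay between them (−0.47 ± 1.25, SE). Meioc, shown because it is called at E18.5, followed the same order, with 39.7, 214, 5.34 and 4.39 CPM in Natural and 65.1, 106, 85.4, 45.0 and 142 CPM in IVF libraries. Natural 2 was high and Natural 3 and 4 were low for both entry genes.

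Spo11, whose product makes the DNA breaks, measured 19.6, 91.5, 16.7 and 11.6 CPM in Natural and 19.6, 51.3, 30.6, 26.3 and 29.4 CPM in IVF PGCs (−0.16 ± 0.53). The axis gene Sycp3 measured 24.8, 105, 8.00 and 8.12 CPM in Natural and 32.5, 27.1, 31.2, 14.0 and 30.4 CPM in IVF PGCs (−0.44 ± 0.64). Dmc1, the meiotic recombinase, measured 16.9, 72.7, 6.05 and 5.49 CPM in Natural and 15.9, 20.4, 16.6, 13.9 and 22.6 CPM in IVF PGCs (−0.52 ± 0.63). In all of these genes Natural 2 was the highest of the 9 libraries, and Natural 3 and 4 were below every IVF library. Spdya, an activator of CDK2 at telomeres, stood at 2.94, 45.9, 0 and 2.63 CPM in Natural and at 2.66, 2.85, 2.36, 2.05 and 5.86 CPM in IVF PGCs, so that Natural 2 alone was far from the rest (−2.04 ± 1.06).

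Fkbp6 and Syce2 were the members with the highest level per kilobase of exon in Natural PGCs and did not follow this pattern. Fkbp6, a co-chaperone needed for meiosis in males, stood at 442, 279, 292 and 302 CPM in Natural and at 386, 262, 260, 323 and 278 CPM in IVF PGCs (−0.12 on the log2 scale). Syce2, a central element protein of the synaptonemal complex, stood at 252, 187, 192 and 152 CPM in Natural and at 281, 158, 207, 222 and 206 CPM in IVF PGCs (0.13). Both genes were already abundant in the libraries where Stra8 was at or near 0. Per kilobase, Fkbp6 had 187 ± 43.3 CPM, Syce2 99.5 ± 21.0 CPM and Stra8 91.1 ± 170 CPM (SD, n = 4).

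Over the 34 members, Natural 2 was the highest library for 24 (70.6%), against 26.1% of all genes tested. The lowest library was Natural 3 or 4 for 24 members, against 30.1% of all genes. The range of the Natural values held the whole IVF range for 23 members (67.6%), against 37% of all genes. The number of members at 1 CPM or more was 33, 37, 28 and 30 in Natural and 33, 36, 34, 34 and 36 in IVF libraries. Early germ cell genes ran the other way in Natural 2. Nanog, a pluripotency factor of germ cells before meiosis, stood at 219, 29.7, 378 and 329 CPM in Natural and at 230, 83.6, 154, 289 and 128 CPM in IVF PGCs. The summed early germ cell list was 886 CPM in Natural 2, 2700 to 3613 CPM in the other Natural libraries and 1390 to 3675 CPM in IVF libraries, and the part of this difference in the member values was not tested.

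Without Natural 2, which left 3 Natural libraries, the median difference of the members was 0.83 beside 0.02 over all genes, and 30 members were above 0. In that fit 16 members had an unadjusted p below 0.05 and 0 were called by edgeR after adjustment, with a lowest adjusted p of 0.167 for Stra8 (3.53 ± 0.85). Spo11 (0.98), Sycp3 (1.02), Dmc1 (0.94) and Spdya (0.81) also turned from below to above 0. The direction of the members at E13.5 therefore rests on 1 library of 100 cells.

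**Figure D1:**
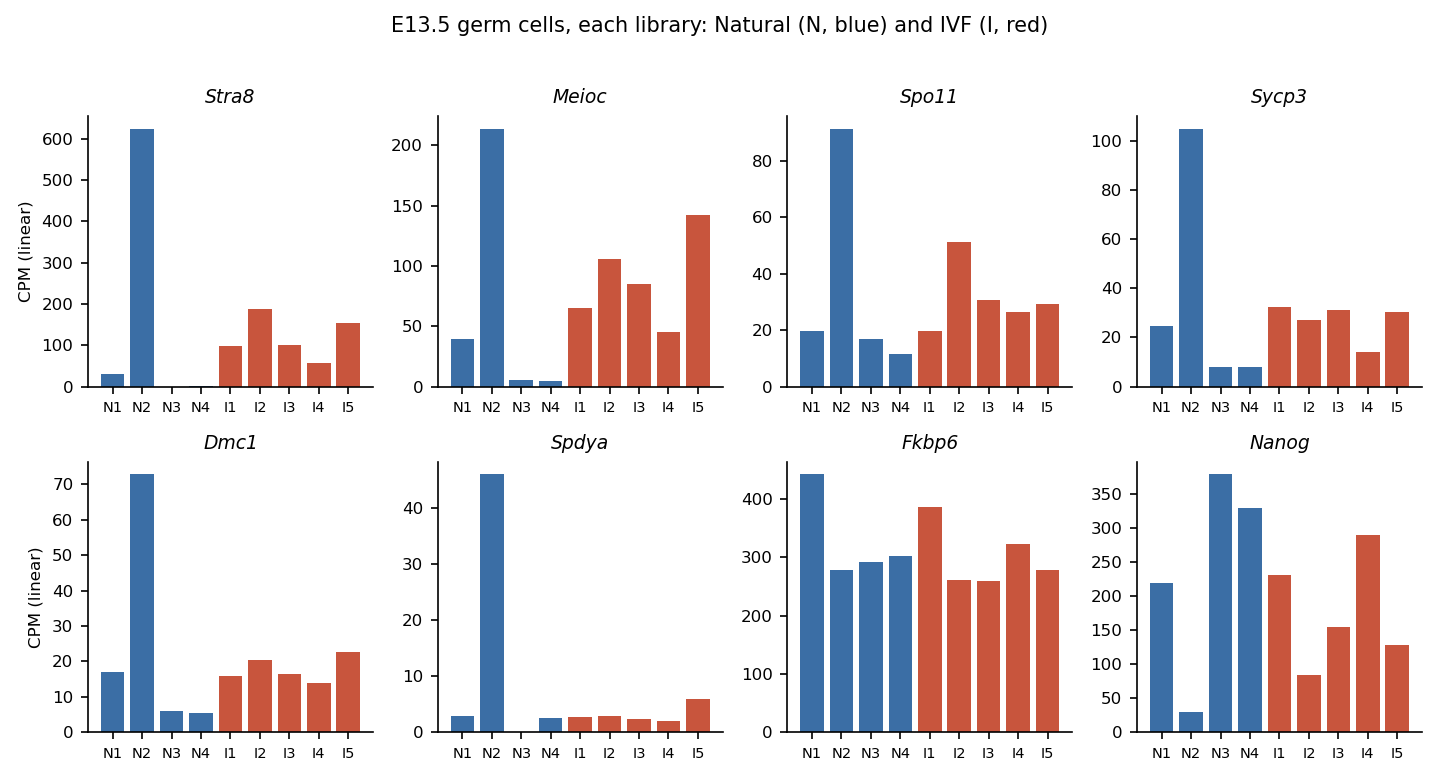
CPM (y axis, linear from 0, own scale in each panel) of 7 meiotic prophase genes and of Nanog in the 4 Natural and 5 IVF libraries of E13.5 PGCs (x axis), 1 bar per library. Natural 2 is highest for Stra8 (624 CPM), Meioc, Spo11, Sycp3, Dmc1 and Spdya and lowest for Nanog (29.7 CPM), while Fkbp6 lies between 260 and 442 CPM in every library.

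In the E18.5 ovary, where most germ cells are late in prophase, 6 members were higher in IVF than in Natural ovaries and 0 were lower. They were Sycp2 of the chromosome axis, Meioc and Ythdc2 of meiotic entry, Tex15 and Spata22 of strand exchange, and Cntd1 of crossover designation. These 6 are 6 of the 34 members that passed the filter (Stra8, Mei4 and Spdya did not), beside 5.43% of all 16415 genes called in either direction, 2.67% called higher and 2.75% called lower. In a whole ovary, a change in the number of cells of a type and a change in RNA per cell cannot be told apart. The study counted germ cells stained for GCNA1 in whole E18.5 ovaries and reported no difference between IVF and Natural.

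Sycp2, the partner of SYCP3 in the axis, stood at 10.1, 17.1, 9.35 and 10.3 CPM in Natural 1 to 4 and at 27.1, 40.0, 29.3, 28.1, 38.6 and 35.2 CPM in IVF 1 to 6. Every IVF ovary was above every Natural ovary, with means of 11.7 ± 3.62 and 33.1 ± 5.62 CPM (SD, n = 4 and 6) and a difference of 1.5 ± 0.20 (edgeR adjusted p = 0.00847). Meioc stood at 2.66, 2.53, 1.19 and 1.35 CPM in Natural and at 5.17, 15.8, 5.65, 6.6, 11.5 and 7.51 CPM in IVF ovaries. The groups did not overlap, and the difference was the largest of the 6 called, 2.16 ± 0.39 (edgeR adjusted p = 0.0138). Its partner Ythdc2 stood at 27.3, 17.7, 20.2 and 17.9 CPM in Natural and at 35.6, 40.3, 26.5, 30.9, 38.6 and 44.1 CPM in IVF ovaries. Here Natural 1 was just above IVF 3, and the difference was 0.79 ± 0.17 (edgeR adjusted p = 0.0235).

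Tex15, which acts in the loading of recombinases and in transposon silencing in male germ cells, stood at 179, 249, 137 and 179 CPM in Natural and at 458, 263, 322, 255, 451 and 378 CPM in IVF ovaries. The highest Natural value, in Natural 2, was just below the lowest IVF value, in IVF 4 (0.93 ± 0.20, edgeR adjusted p = 0.0231). Spata22, which binds single-stranded DNA together with MEIOB, stood at 3.74, 7.15, 3.28 and 4.66 CPM in Natural and at 9.00, 13.9, 10.4, 6.70, 13.0 and 14.4 CPM in IVF ovaries. IVF 4 lay below Natural 2 in this gene (1.25 ± 0.28, edgeR adjusted p = 0.0261). The annotated exons of Spata22 lie for 80.5% of their length within those of another gene model, Gm49340, on the same strand, so that its counts are uncertain. Cntd1, needed to settle crossovers, stood at 1.99, 3.80, 2.79 and 3.58 CPM in Natural and at 7.17, 4.42, 4.57, 8.29, 5.88 and 9.77 CPM in IVF ovaries. The groups did not overlap (1.13 ± 0.30, edgeR adjusted p = 0.0458), but 70.2% of its exon length faces Becn1 on the opposite strand, and the strand setting of the counting was not given in the sources used here. The 4 members whose groups did not overlap were Sycp2, Meioc, Tex15 and Cntd1, all with IVF above Natural, as in 4.28% of all genes tested.

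**Figure D2:**
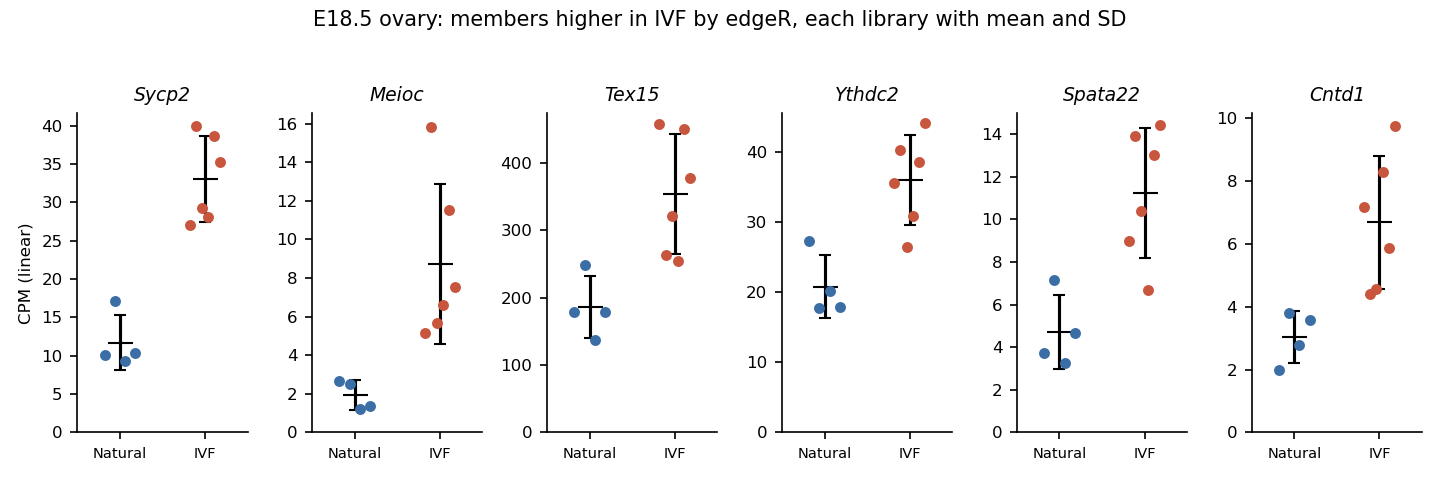
CPM (y axis, linear from 0, own scale in each panel) of the 6 meiotic prophase genes called at E18.5 in 4 Natural and 6 IVF ovaries, with 1 point per library and bars for the mean ± SD. The IVF points lie above all Natural points for Sycp2, Meioc, Tex15 and Cntd1, and a single value crosses for Ythdc2 and Spata22.

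By role, the entry genes had 2 of 2 tested called, strand exchange 2 of 7, axis and synaptonemal complex 1 of 10 and crossover formation 1 of 7. Break formation had 0 of 4, telomere attachment 0 of 2 and the other roles 0 of 2. Over all 34 members tested 25 were above 0 and 9 below it, beside 50% above 0 over all genes, and the median difference was 0.54 beside 0.00. An unadjusted p below 0.05 was reached by 12 members, beside 24.1% of all genes. The 6 of these that missed the threshold after adjustment were Sycp1 (0.82), Spo11 (1.55), Mei1 (0.88), Hfm1 (1.22), Terb1 (0.88) and Mlh3 (0.32), with adjusted p from 0.0627 to 0.174 by edgeR. DESeq2 called 11 of 37 members, adding the first 5 of these 6. The share of all genes called by DESeq2 is not given here, and the edgeR share does not apply to this count. The edgeR count was 2 without Natural 3 or without Natural 4 and 3 without IVF 2 or without IVF 6, and it did not pass 7 without any other library. Over 18 alternatives each of the 6 stayed above 0. Meioc was called in 16 of them, Sycp2 in 15, Tex15 in 12, Spata22 in 10, Ythdc2 in 9 and Cntd1 in 4. Over these the adjusted p of Cntd1 by edgeR or DESeq2 ran from 0.00534 to 0.921 and that of Ythdc2 from 0.00151 to 0.985.

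Of the 3 members with the highest level per kilobase in Natural E18.5 ovaries, Tex15 was called and Sycp3 and Fkbp6 were not. Sycp3 stood at 58.1, 79.6, 31.7 and 71.5 CPM in Natural and at 60.4, 34.4, 60.1, 40.1, 71.1 and 67.2 CPM in IVF ovaries (−0.12 ± 0.25, edgeR adjusted p = 0.810). Fkbp6 stood at 51.9, 75.0, 20.4 and 81.3 CPM in Natural and at 59.1, 23.3, 55.9, 31.2, 66.6 and 61.7 CPM in IVF ovaries (−0.21 ± 0.35, edgeR adjusted p = 0.763). For both genes the groups overlapped, and Natural 3, IVF 2 and IVF 4 were the lowest libraries. Per kilobase of exon Sycp3 had 47.6 ± 16.6 CPM, Fkbp6 32.6 ± 15.7 CPM and Tex15 19.3 ± 4.85 CPM in Natural ovaries (SD, n = 4). For Sycp3, 52.2% of the exon length faces Chpt1 on the opposite strand.

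Of the other landmark genes, Stra8 had no count in the 4 Natural ovaries, which allows up to 0.0616 CPM over the group, and 0.334 CPM in IVF 1 alone. Spo11 stood at 0.665, 2.90, 1.39 and 1.89 CPM in Natural and at 1.5, 6.00, 4.98, 5.10, 7.00 and 5.69 CPM in IVF ovaries, where IVF 1 alone lay within the Natural range (1.55 ± 0.45, edgeR adjusted p = 0.0627). Dmc1 stood at 1.16, 4.62, 2.59 and 4.32 CPM in Natural and at 3.25, 6.09, 3.99, 4.70, 3.92 and 5.48 CPM in IVF ovaries (0.52 ± 0.36, edgeR adjusted p = 0.394). Spdya ranged from 0.498 to 0.914 CPM in Natural and from 0.664 to 1.96 CPM in IVF ovaries and did not pass the filter.

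Genes of meiosis outside the 37 were read from further lists. Of the 22 tested genes of a list of other meiotic prophase genes 4 were higher in IVF and 0 lower by edgeR with adjustment, namely the cohesin gene Rad21l (1.66, adjusted p = 0.0129), the synaptonemal complex gene 4930447C04Rik (1.46, adjusted p = 0.0172), the break formation gene Ankrd31 (1.52, adjusted p = 0.0279) and the crossover gene Prr19 (1.61, adjusted p = 0.0399). The median of that list was 0.38. Of 11 tested regulators of meiotic entry 1 was called, the signalling ligand Bmp2 (0.89, adjusted p = 0.0379 by edgeR), with a list median of 0.04. None of the 5 pan germ cell genes was called (0 of 5 by edgeR, median 0.28).

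Germ cell markers varied within both groups, and growing oocyte markers were lower in IVF ovaries. The summed pan germ cell genes were 419, 493, 203 and 536 CPM in Natural and 570, 259, 518, 288, 584 and 626 CPM in IVF ovaries, lowest in Natural 3, IVF 2 and IVF 4. The summed growing oocyte genes were 512, 594, 282 and 1049 CPM in Natural and 341, 63.6, 306, 105, 343 and 333 CPM in IVF ovaries. All 13 tested genes of that list were below 0, with a median of −1.81, and 5 of them were lower in IVF by edgeR, among them the oocyte growth factor Gdf9 (−2.14) and the zona pellucida gene Zp3 (−3.14). Of 5 tested early germ cell genes 1, the pluripotency factor Pou5f1, was also lower (−2.32, edgeR adjusted p = 0.0264). Erythroid genes ran higher in IVF, with 3 of 6 called (Hbb-bs, Alas2 and Slc4a1) and summed levels of 603 to 1600 CPM in Natural and 1618 to 4627 CPM in IVF ovaries. The part of these cell types in the member values was not tested, except that scaling each library to its pan germ cell genes, which moved the median of all genes to −0.23, left 1 member called (Meioc) and a member median of 0.43. In that fit the differences of the 6 members called without this scaling stayed positive with wider errors. They were 2.18 ± 0.57 for Meioc, 1.37 ± 0.46 for Sycp2 and 1.13 ± 0.51 for Spata22. Smaller ones were 0.93 ± 0.55 for Cntd1, 0.69 ± 0.47 for Tex15 and 0.55 ± 0.45 for Ythdc2.

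The differences at E18.5 also followed transcript length. Over 15213 genes Spearman's rho between exon length and the log2 difference was 0.358, and over the 34 members it was 0.543, both as descriptions across genes that share the same 10 libraries. The 6 called members had a median exon length of 5292 bp against 2282 bp in the 28 others. When the length trend of each library was taken out, an alternative chosen after seeing the data, edgeR called 3 members (Sycp2, Meioc and Spata22), while 30 of the 34 were above 0 and their median was 0.66. The share of all genes called in that fit is not given here. In the other comparisons the same rho lay between −0.139 and 0.123 over all genes.

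**Figure D3:**
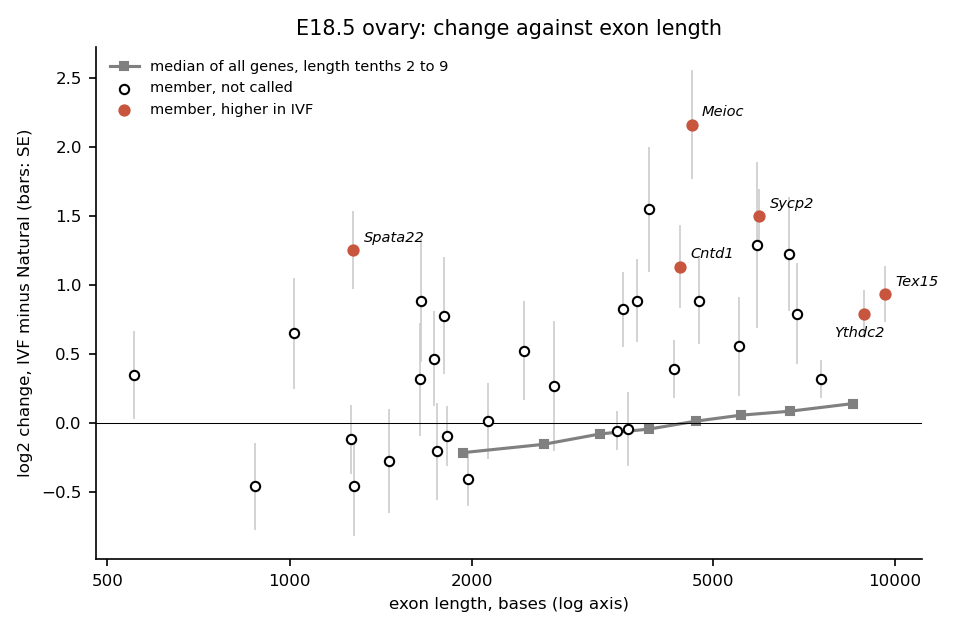
Log2 difference of IVF over Natural at E18.5 ± SE (y axis) against annotated exon length in bp (x axis, log scale) for the 34 meiotic prophase genes tested, with called genes named and the median of all tested genes in classes of length as a grey line. The called genes lie mostly at long lengths, and most members lie above the grey line.

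In the 12-week ovary most prophase genes were near the limit of detection, and 0 of the 22 members that passed the filter were called by edgeR, beside 0.00567% of all 17628 genes. At an unadjusted p below 0.05 there were 2 members, Sycp1 (−1.18) and Tex15 (0.86 ± 0.25), beside 14.4% of all genes, and DESeq2 called 1, Tex15. The median difference of the 22 was 0.17 beside 0.01 over all genes. Tex15, named here after its values were seen, stood at 28.2, 16.2, 28.7 and 20.2 CPM in Natural and at 25.7, 51.2, 53.9, 46.6 and 35.2 CPM in IVF ovaries, where IVF 1 alone lay within the Natural range (edgeR adjusted p = 0.196). Sycp3 stood at 1.77, 2.22, 2.21 and 3.10 CPM in Natural and at 2.14, 1.10, 1.74, 1.69 and 2.85 CPM in IVF ovaries, with overlap.

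In the 39-week ovary 0 of 18 tested members were called by edgeR, beside 0.262% of all 17186 genes, 1 had an unadjusted p below 0.05, beside 19.2% of all genes, and DESeq2 called 2 lower, Sycp1 and Prdm9. The median difference was −0.07 beside 0.03 over all genes. Prdm9, the histone methyltransferase that places recombination hotspots, is named here after its values were seen. It stood at 10.7, 12.3, 6.79, 9.32 and 11.6 CPM in Natural and at 3.37, 4.78, 4.57, 5.28 and 5.03 CPM in IVF ovaries. Every IVF ovary was below every Natural ovary, as in 2.85% of all genes, with means of 10.2 ± 2.18 and 4.60 ± 0.741 CPM (SD, n = 5 and 5). The difference of −1.14 ± 0.20 just missed the threshold (edgeR adjusted p = 0.0512). It was called without IVF 1 or with a filter of at least 10 counts in every library. In 12-week cumulus cells, where pan germ cell genes were near 0, Prdm9 stood at 8.64, 5.56, 2.09, 3.49 and 0.411 CPM in Natural libraries. It stood at 0.703, 0.838, 0, 8.88 and 3.26 CPM in IVF libraries there. The part of somatic cells in the ovary values of Prdm9 was not tested.

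In 12-week oocytes 0 of the 30 members that passed the filter were called between the 5 Natural and 5 IVF library sets by edgeR, beside 0.0277% of 14444 genes, 3 had an unadjusted p below 0.05, beside 6.67% of all genes, and DESeq2 called 0. The median difference was 0.00 beside 0.02 over all genes. The members with the highest level per kilobase in Natural sets were Syce2 (70.9 ± 18.2 CPM), Slc25a31 (38.3 ± 6.68 CPM) and Tex12 (29.1 ± 10.2 CPM; SD, n = 5).

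Syce2 stood at 110, 200, 141, 132 and 115 CPM in Natural and at 143, 135, 200, 159 and 141 CPM in IVF sets, with full overlap. Slc25a31, the ADP/ATP carrier of germ cell mitochondria, stood at 104, 72.2, 77.0, 85.3 and 68.5 CPM in Natural and at 94.9, 89.8, 51.5, 101 and 86.4 CPM in IVF sets, also with overlap. Tex12, another central element protein, stood at 46.0, 21.3, 32.7, 20.8 and 26.9 CPM in Natural and at 15.2, 24.8, 18.0, 23.1 and 12.6 CPM in IVF sets. Its IVF values were mostly the lower ones (−0.66 ± 0.25), but the groups overlapped and the edgeR adjusted p was 0.699. Sycp3 stood at 16.5, 8.76, 11.8, 10.2 and 17.9 CPM in Natural and at 12.3, 18.0, 7.48, 14.6 and 7.04 CPM in IVF sets, and Dmc1 at 2.43, 1.56, 1.20, 1.54 and 0.925 CPM in Natural and at 3.06, 2.13, 0.231, 0.366 and 1.77 CPM in IVF sets. Neither gene separated the groups. Stra8, Spo11 and Spdya did not pass the filter. With single oocytes in place of sets as units, edgeR called 2 of 14 tested members lower, Sycp2 and Tex12. This treats oocytes of 1 set as independent, and the share of all genes called is not given here.

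In 39-week oocytes no label tied an oocyte to an animal, so that each group was taken as 1 sample and no test was made. Ratios are IVF over Natural of summed counts, each scaled to the total of its group, with exact 95% intervals that cover counting error only. Of the 23 members at 1 CPM or more in a group, 6 were at least 2-fold higher and 5 at least 2-fold lower in IVF, beside 9.45% and 20.7% of 12319 genes. Without the Natural oocytes 6 and 9, a choice made after seeing the data, 6 of 20 members were higher and 1 lower, beside 9.07% and 10.4% of 11904 genes. The groups overlapped for every member measured, while for 0.162% of all genes every IVF value was above and for 0.203% below every Natural value.

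Axis and central element genes were among the higher ones. Tex12 had a lowest, median and highest level of 3.04, 6.03 and 12.4 CPM in Natural and of 11.7, 19.1 and 24.6 CPM in IVF oocytes, so that only the upper end of Natural met the lower end of IVF. Its ratio was 3.27 (3.00 to 3.57), and 3.06 without the 2 Natural oocytes. Hormad1, an axis protein that monitors synapsis, had 0.109, 4.60 and 8.51 CPM in Natural and 4.97, 10.0 and 25.2 CPM in IVF oocytes, with a ratio of 3.42 (3.07 to 3.81), and 2.59 without the 2. Sycp3 had 1.49, 2.99 and 8.63 CPM in Natural and 3.27, 6.69 and 15.4 CPM in IVF oocytes, with a ratio of 2.55 (2.28 to 2.86), and 3.14 without the 2. The groups overlapped more in Hormad1 and Sycp3 than in Tex12.

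Tex15 had 4.46, 12.6 and 38.5 CPM in Natural and 4.86, 39.3 and 91.8 CPM in IVF oocytes, with a ratio of 2.65 (2.50 to 2.80), and 3.01 without the 2. Majin, which ties telomeres to the nuclear envelope, had 0, 0 and 1.20 CPM in Natural and 0, 0.903 and 11.5 CPM in IVF oocytes, with a ratio of 7.11 (5.14 to 10.1). Slc25a31 had 0.109, 36.2 and 60.9 CPM in Natural and 39.9, 58.3 and 94 CPM in IVF oocytes, and its ratio of 2.20 became 1.60 without the 2. At 12 weeks Tex12 was not higher in IVF sets, and the difference between the ages was not tested.

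Dmc1 ran the other way, with 0, 1.84 and 4.03 CPM in Natural and 0, 0 and 3.55 CPM in IVF oocytes. It had a count in 7 of 9 Natural and in 2 of 10 IVF oocytes, and its ratio was 0.0417 (0.0204 to 0.0766), and 0.0386 without the 2 Natural oocytes. The value of 3.55 CPM came from IVF 7, the library of lowest depth (2820748 counts). Ythdc2 (0.286), Psmc3ip (0.197), Cntd1 (0.119) and Prdm9 (0.398) were the other members at least 2-fold lower, and none of these 4 was so without the 2 Natural oocytes, where their ratios were 0.504, 0.663, 0.566 and 0.757. Natural 9 held the highest values, 17.7 CPM of Ythdc2, 10.9 CPM of Psmc3ip and 18.7 CPM of Cntd1. Syce2, the member with the highest level per kilobase at this age as well (163 ± 106 CPM, SD, n = 9), had 165, 238 and 787 CPM in Natural and 137, 219 and 327 CPM in IVF oocytes, with a ratio of 0.639, and 0.987 without the 2. Stra8, Spo11 and Spdya were at 0 in all but 1 or 2 oocytes.

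**Figure D4:**
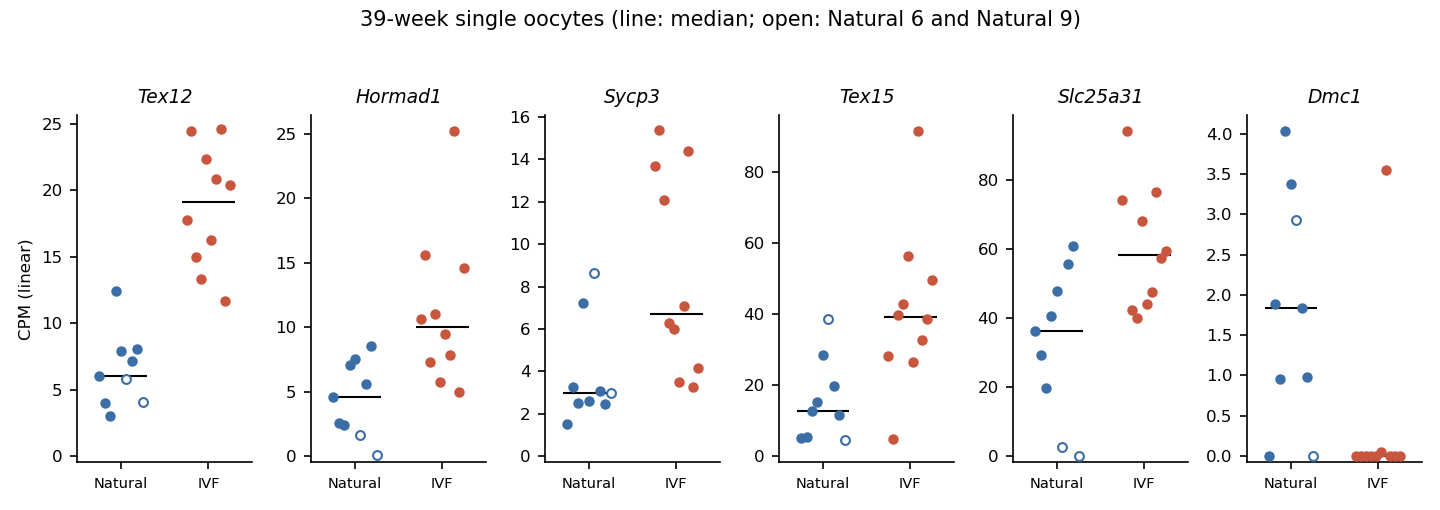
CPM (y axis, linear from 0, own scale in each panel) of 6 meiotic prophase genes in single 39-week oocytes, 9 Natural and 10 IVF, with 1 point per oocyte, a line at the group median and open points for Natural 6 and 9. Tex12 medians are 6.03 and 19.1 CPM, and Dmc1 is at 0 in 8 of 10 IVF oocytes.

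In 12-week cumulus cells, somatic cells around the oocyte, 6 members passed the filter (Syce2, Trip13, Ythdc2, Prdm9, Tex15 and Mlh3). edgeR called 0 of them, beside 0.00903% of 11080 genes, 1 (Mlh3, 0.88) had an unadjusted p below 0.05, beside 5.97% of all genes, and DESeq2 called 0. Tex15 stood at 12.5, 15.2, 13.2, 21.1 and 15.6 CPM in Natural and at 21.4, 18.9, 31.3, 10.7 and 14.2 CPM in IVF cells while the pan germ cell genes summed to at most 4.07 CPM, so that its RNA was measured where germ cell markers were near 0.

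From E13.5 PGCs to 12-week oocytes of Natural mice, fitted on a joint scale, edgeR called 17 of 36 tested members lower (37.1% of all 17368 genes) and 8 higher (38.9%), and 76.1% of all genes changed. The median of the members was −1.28 beside −0.09 over all genes. Libraries of both ages were made by a low-input protocol, but age, cell number and batch differ together between them. The joint scale multiplied the CPM of PGC libraries by 0.521 and those of oocyte sets by 1.78 on average, and the values below are on it.

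The members lower in oocytes included genes of entry, breaks and early recombination. Stra8, Spo11 and Syce3 were at 0 in all 5 Natural oocyte sets, which makes Stra8 at least 3296-fold, Spo11 at least 705-fold and Syce3 at least 78.6-fold lower by a floor of 3 counts over the group. Without PGC Natural 2 these bounds were 220.5-fold, 329-fold and 30.1-fold. Fkbp6 went from 171 ± 38.5 to 2.45 ± 1.00 CPM (SD, n = 4 and 5), a difference of −6.11 ± 0.34 (edgeR adjusted p = 1.09e-12). Syce1, a central element gene like Syce2, went from 53.2 ± 41.9 to 0.684 ± 0.419 CPM, and Meioc from 33.7 ± 51.1 to 0.609 ± 0.548 CPM. Dmc1 was lower by edgeR with PGC Natural 2 (−2.23 ± 0.70, adjusted p = 0.00646) and was no longer called without it.

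On the joint scale the 8 members higher in oocytes were Msh4 (4.16), Terb1 (3.78), Sycp2 (3.76), Mei4 (2.61), Tex12 (2.57), Slc25a31 (2.05), Tex11 (1.72) and Syce2 (1.28). The changes of Tex11 and Slc25a31 were about as large as the shift that the joint scale made between PGC libraries and oocyte sets. Msh4, of the crossover-stabilizing MutS pair, went from 6.38 ± 6.94 to 118 ± 46.3 CPM, and Sycp2 from 14.7 ± 20.7 to 204 ± 64.5 CPM. Syce2 went from 102 ± 20.7 to 247 ± 57.2 CPM on the joint scale. Within its own tables its mean CPM was lower in oocyte sets than in PGCs, so that its rise depends on the joint scale. On that scale the central element genes went apart, Syce2 and Tex12 higher and Syce1 and Syce3 lower. Sycp3 (0.32) and Tex15 (0.18) were not called. Without PGC Natural 2 both were higher by edgeR on the joint scale, Sycp3 by 1.74 (adjusted p = 0.00158) and Tex15 by 1.23 (adjusted p = 0.0129). Neither change exceeded the shift that the joint scale of the full fit made between PGC libraries and oocyte sets. Both rises thus depend on that scale. Without PGC Natural 2 there were 13 higher and 13 lower on that scale. The median was 0.49, and Mei1, Prdm9, Meiob, Sycp1, Majin and Msh5 changed sign. A promoter window was found for 7 of the 8 higher members and held at least 1 of the 3 motifs in 4, and for 15 of the 17 lower ones and held one in 9.

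From the E18.5 to the 12-week Natural ovary, 30 of 36 tested members were lower and 0 higher by edgeR, beside 24.3% lower and 49.7% called of all 19724 genes. The median was −3.23 beside 0.01 over all genes. Sycp3 fell by 4.61 ± 0.32, and Syce3 was at 0 at 12 weeks, at least 150-fold lower. The pan germ cell genes were all lower as well (5 of 5, median −4.71), and the part of germ cell number in the member values was not tested. Mlh3 (−0.74) and Ythdc2 (−0.56) changed least among those called.

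**Figure D5:**
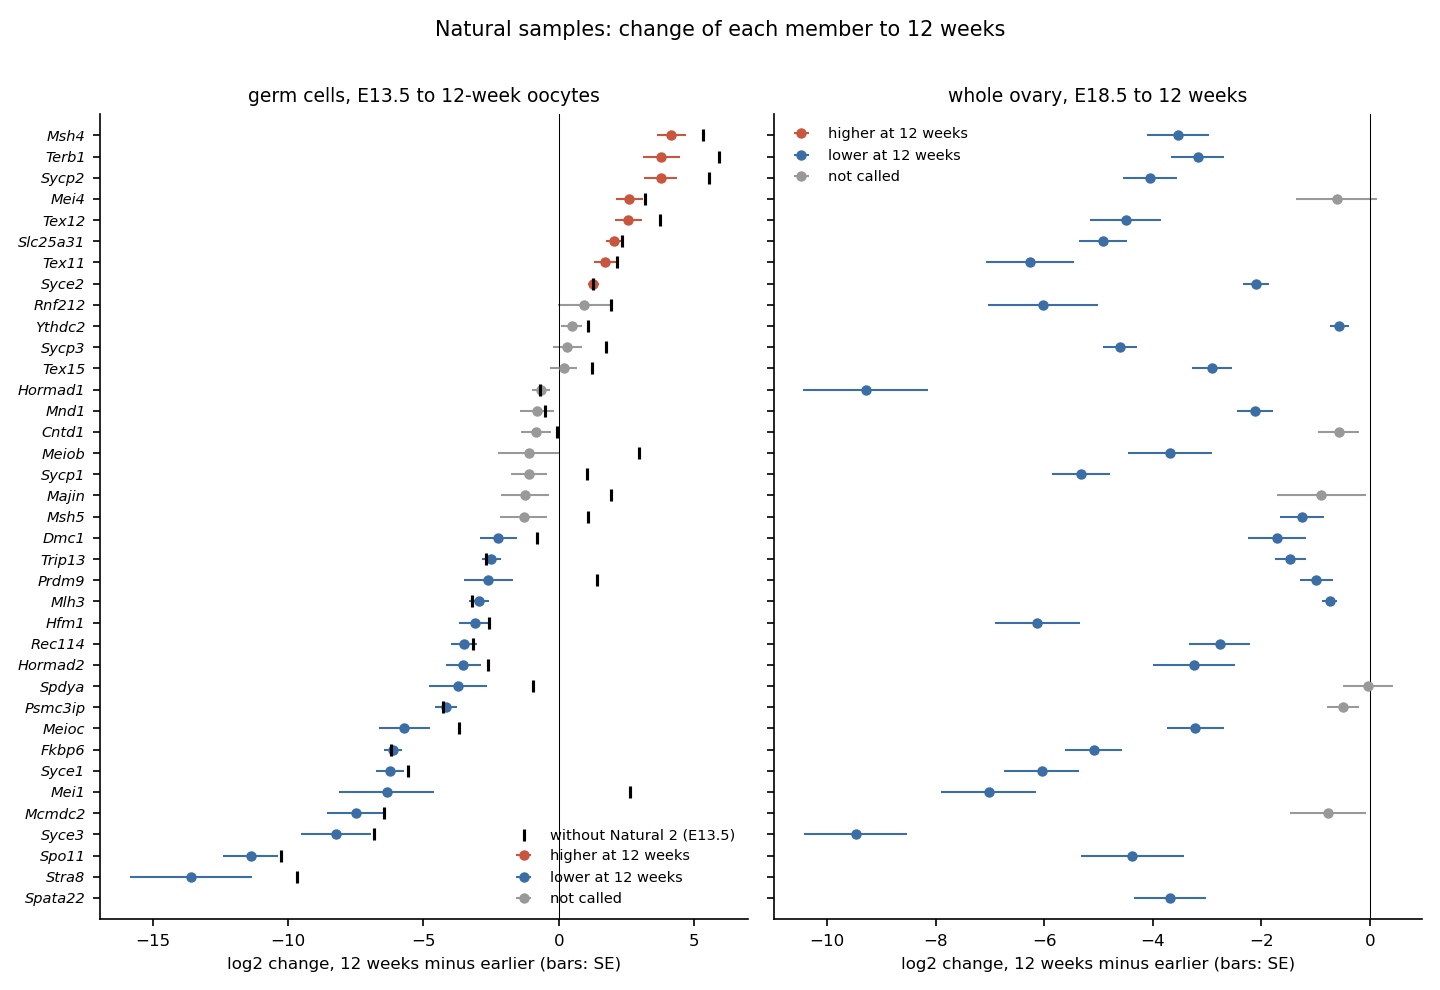
Log2 difference ± SE (x axis) of each meiotic prophase gene (y axis) in Natural mice from E13.5 PGCs to 12-week oocytes (left; black ticks give the value without PGC Natural 2) and from the E18.5 to the 12-week ovary (right). In germ cells, on the joint scale, 8 members are higher and 17 lower, and in the ovary 30 are lower and 0 higher.

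The order of the members by level per kilobase changed between stages. Over the 37 members Spearman's rho of mean Natural levels was 0.545 between PGCs and E18.5 ovary, 0.273 between PGCs and 12-week oocytes and 0.934 between 12-week and 39-week oocytes. These are descriptions across genes that share exon length and, between PGCs and oocytes and between the oocyte ages, a low-input protocol.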

How the data were processed

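The deposited files hold raw counts per gene, 1 table for each age and material. Per the submitters' processing notes the authors used Trimmomatic 0.32, STAR 2.3.0e, featureCounts 1.5.0, DESeq2 and mm10. For the low-input libraries the paper's methods name trimgalore as the trimming tool. The tissue kit marked strand and the low-input kit of PGCs, oocytes and cumulus cells did not, and the strand setting of the counting is not given in the sources used here. Such counts can be shared between overlapping genes, and low-input libraries miss rare transcripts.

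Groups came from the labels. Each table was fitted alone over all genes with edgeR 4.0.16 (R 4.3.3; TMM, filterByExpr, quasi-likelihood test, two-sided, Benjamini-Hochberg over all genes tested, threshold 0.05). The cumulus fit also held a term for library set, numbered library names against names that spell out the condition. DESeq2 1.42.0 was an alternative, with other normalization, filters, left-out libraries, a replicate block, length adjustment and germ cell scaling. The scripts were tested on simulated data. The 12-week oocytes were summed by library set, and 39-week oocytes were not tested. Correlations of same-numbered libraries ran from −0.08 to 0.56 in PGCs, −0.15 to 0.01 at E18.5, −0.41 to 0.28 at 12 weeks, 0.02 to 0.41 at 39 weeks and −0.30 to 0.16 in cumulus cells. In no comparison was every pair above 0.1, so replicate numbers were not taken as pairs. No 2 libraries agreed within sampling noise. Depth per library is given in the report, and intervals and floors of 3 counts cover counting error only. Fold changes of levels near that floor are imprecise.

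The members and gene lists were chosen with earlier results of these data known. Values in every library were given for called members, for the 3 with the highest level per kilobase in Natural germ cell material and for Stra8, Spo11, Sycp3, Dmc1 and Spdya. Others are given by range and count.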

Additional observations from a re-analysis of the deposited data

Results flagged for a closer look

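Of 76 groups of 4 to 10 values of the named members, 13 held a value far from the rest of its group by Dixon's test at the 95% level. Chance would mark about 1 in 20 groups, and groups of the same libraries are not independent.

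In E13.5 PGCs, Natural 2 stood apart for Stra8 (624 CPM, next value 30.4 CPM), Spo11 (91.5 CPM, next 19.6 CPM), Dmc1 (72.7 CPM, next 16.9 CPM) and Spdya (45.9 CPM, next 2.94 CPM). Natural 1 stood apart for Fkbp6 (442 CPM, next 302 CPM), IVF 4 was low for Sycp3 (14.0 CPM, next 27.1 CPM) and IVF 5 was high for Spdya (5.86 CPM, next 2.85 CPM).

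In ovaries, Natural 2 at E18.5 was high for Sycp2 (17.1 CPM, next 10.3 CPM) and IVF 1 at E18.5 was low for Spo11 (1.5 CPM, next 4.98 CPM). At 39 weeks Natural 5 was high for Spo11 (0.744 CPM, next 0.149 CPM) and Natural 3 was low for Spdya (0.179 CPM, next 0.418 CPM). In oocytes, the 12-week IVF set 127_2 was high for Stra8 (0.183 CPM, next 0.0229 CPM), and 39-week IVF oocyte 7, the library of lowest depth, was high for Dmc1 (3.55 CPM, next 0.0509 CPM).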

How the results depend on the processing

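Over all alternatives 127 summary values kept their side of the threshold or stayed within 1.5 times of the count given, and 15 moved further. None of the 6 members called at E18.5 reversed its direction, whereas in PGCs leaving out Natural 2 turned Stra8, Spo11, Sycp3, Dmc1 and Spdya from below to above 0, none of them called. At E18.5 the count of called members, 6, was 11 with DESeq2, 3 with length-adjusted offsets (chosen after seeing the data), 1 when scaled to pan germ cell genes, and from 2 to 7 when each library was left out in turn. With the replicate block it was 0, and it was also 0 in the same 8 libraries without the block, where 2 and 1 of all genes were called. The replicate numbers were not taken as pairs, and the block changed no other count of called members. In the 12-week ovary DESeq2 called 1 member, and in the 39-week ovary it called 2, the filter of at least 10 counts 1, and leaving out each library 0 to 1. In 12-week oocytes 2 were called with single oocytes as units. Apart from the fits of the same 8 libraries, no share of all genes called is given for these alternatives. In 39-week oocytes the 11 members past 2-fold became 7 without Natural 6 and 9. The cause of these changes was not tested. Low counts limit what could be tested, with 22 and 18 of the 37 members past the filter in the adult ovaries and 6 in cumulus cells.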
